A study of Drosophila melanogaster with 35 samples.

Results

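PH4alphaPV, ninaD, mey and lky are 4 genes at which DNA marked by a lamin fusion protein fell when Drosophila Kc167 cells were given trichostatin A (TSA). They were chosen by the measured change, out of 7260 genes with a single symbol on the arrays, as those with a large fall of Dam-Lam methylation with TSA on arrays 3686 and 3687 while the protein without its membrane signal moved little at most of them, on arrays 3692 and 3693. The values of those 4 arrays are therefore given as a description, without a test. Each gene had 1 probe row, named that gene alone, and had a value on every one of the 35 arrays.

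The arrays were two-colour cDNA arrays of Kc167, an embryonic Drosophila melanogaster cell line. In DamID a fusion to Dam, a bacterial adenine methyltransferase, methylates GATC sites in the DNA that a protein contacts, and Dam alone serves as the reference. Every DamID group carried a Dam construct on the transfected plasmid pNDamMyc (Dam-Lam, with full-length lamin, Dam-Lam delta CaaX, lacking the last 4 amino acids that hold the membrane-targeting signal, or Dam), and the cells kept their own lamin gene. Untreated Dam-Lam over Dam and Dam-Lam delta CaaX over Dam had 4 arrays each. The TSA experiment (100 nM, 24 h) had 10 arrays in 5 dye-swapped pairs: each of the 3 constructs with over without TSA, and both lamin constructs over Dam with TSA. The ecdysone experiment (1 µM, 24 h) had 10 DamID arrays, which were 2 of Dam-Lam and 2 of Dam with over without the hormone and 3 of Dam-Lam over Dam in each state. Transcripts were measured on 5 arrays of mRNA with over without ecdysone, whose dose the labels do not give, and on 2 arrays of untreated mRNA over genomic DNA. No array of transcripts with TSA was analysed here.

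Lamin forms the meshwork under the inner nuclear membrane, and the genes that touch it in fly cells are mostly silent and often clustered along the chromosome. The CaaX signal lets lamin be farnesylated and held at the membrane. TSA inhibits histone deacetylases, enzymes that remove acetyl groups from histones and that act in gene silencing. PH4alphaPV encodes an alpha subunit of the prolyl 4-hydroxylase family, which hydroxylates proline in collagen-type chains. ninaD encodes a class B scavenger receptor for carotenoid uptake, from which the chromophore of the visual pigment is made. mey encodes a zona pellucida domain protein of the apical extracellular matrix of epidermal cells. lky is the gene numbered CG17003, on the X chromosome. By the Release 6 annotation PH4alphaPV and mey lie on chromosome arm 3R and ninaD on 2L. The files name no genome build, so coordinates are not given.

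All values are log2 ratios of the first over the second labelled channel, with the median of the array set to 0. The labels state neither the log base nor the direction, and log2 and this order were assumed. In this direction 25 of 27 cytosolic ribosomal protein genes lay above 0 in mRNA over genomic DNA. Arrays had values for 7542 to 8485 probe rows, and their number limits the precision, since no spot intensities were used. Whether the arrays within a group stem from separate cultures is not stated, and a p-value here measures the spread between arrays, part of which may be technical. Of 10 measured hemocyte genes, the kind of blood cell that Kc167 cells are thought to resemble, Hml had an mRNA over genomic DNA ratio of 4.49 and Ppn 1.98, while NimC1 stood at -2.25 and PPO1 at -2.37. The median of the 10 hemocyte genes was 0.10. The medians of the measured muscle, neuron, germline, fat body and gut markers were -0.40, -1.71, -1.31, -1.53 and -1.62.

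In untreated cells all 4 genes stood far above the median in Dam-Lam over Dam. PH4alphaPV had ratios of 1.98, 2.60, 2.22 and 2.42 on arrays 2907, 2921, 2945 and 2955, a mean of 2.31 ± 0.16 (SE, n = 4), or 4.96-fold. mey had 2.12, 2.06, 2.32 and 1.84 on the same arrays, a mean of 2.09 ± 0.15. These genes were higher than 99.9% and 99.8% of the units measured on all 4 arrays, a unit being a gene or a probe row without a single gene name. ninaD had 1.44, 1.26, 1.01 and 1.31 (1.26 ± 0.14), and lky 0.49, 1.75, 1.33 and 1.26 (1.21 ± 0.22). The ranges of PH4alphaPV and mey overlapped, as did those of ninaD and lky, whereas the lowest value of mey lay above the highest of ninaD and of lky. Array 2907 held the lowest value of lky and of PH4alphaPV and the highest of ninaD.

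limma's moderated test, adjusted over all 8064 units by Benjamini-Hochberg, called all 4 genes higher with Dam-Lam than with Dam, against 20.3% of all units. The adjusted p was 0.00193 for PH4alphaPV and mey, 0.00289 for ninaD and 0.00869 for lky. Over all units this ratio and the change with TSA that chose the genes go together, as given further on, so the count is not independent of the choice. Without array 2921 only PH4alphaPV kept its call, at ratios of 1.30, 2.10 and 0.89 for ninaD, mey and lky (adjusted p = 0.0521, 0.0521 and 0.0777), and only 11 units were called in all.

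Without the CaaX signal the same genes were near or below the median. lky had Dam-Lam delta CaaX over Dam ratios of -0.44, -0.61, -0.30 and -0.26 on arrays 2962, 2966, 2967 and 2968 (-0.40 ± 0.12), and mey had -0.42, -0.36, -0.35 and -0.07 (-0.30 ± 0.12). Both lay below 0 on 4 of 4 arrays. PH4alphaPV had -0.65, 0.27, -0.60 and -0.12 (-0.27 ± 0.17), and ninaD 0.53, -0.60, -0.31 and -0.11 (-0.12 ± 0.18), so that 1 array of each lay on the other side of 0. limma called lky lower (adjusted p = 0.0307) and the other 3 neither, against 16.4% of 8058 units called lower. Their adjusted p was 0.0883 for mey, 0.232 for PH4alphaPV and 0.612 for ninaD. The call of lky was lost without array 2967 or 2968 (adjusted p = 0.186 and 0.166), PH4alphaPV was called lower without array 2966 (-0.50), and ninaD without array 2962 (-0.41).

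The ratios of the untreated proteins did not overlap at any of the 4 genes. Fitted on the 8 arrays together, Dam-Lam minus Dam-Lam delta CaaX was 2.58 ± 0.25 at PH4alphaPV (5.98-fold) and 2.39 ± 0.18 at mey (5.24-fold). It was 1.61 ± 0.25 at lky (3.05-fold) and 1.38 ± 0.24 at ninaD (2.60-fold). All 4 genes were called higher with Dam-Lam by limma, with adjusted p of 0.000155 for PH4alphaPV, 9.51e-05 for mey, 0.00105 for lky and 0.00195 for ninaD. Among all 7713 units 21.1% were called in this direction. The untreated Dam-Lam ratio is part of this difference, so this count is not independent of the choice either. The 4 calls held with each of the 8 arrays left out in turn. The proteins were never hybridised to one array, so that protein and set of arrays cannot be told apart.

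**Figure D1:**
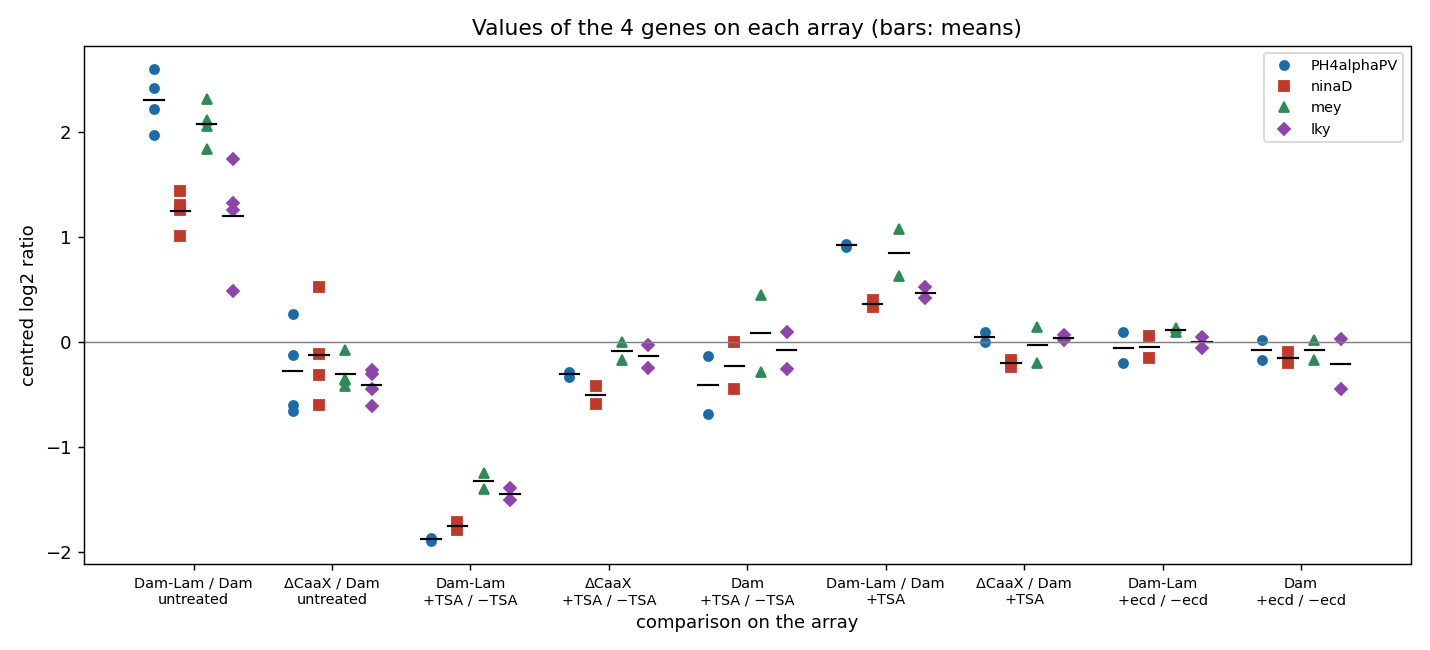
Centred log2 ratios (vertical axis) of PH4alphaPV, ninaD, mey and lky on each array of 9 DamID comparisons (horizontal axis), with 1 point per array and a bar at the mean of each gene. The genes lie between 0.49 and 2.60 in untreated Dam-Lam over Dam and between -1.89 and -1.24 in Dam-Lam with over without TSA, the values that chose them, and near 0 with ecdysone.

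With TSA, Dam-Lam methylation at the 4 genes was 2.50-fold to 3.68-fold lower, which is the choice itself. PH4alphaPV had values of -1.89 and -1.86 on arrays 3686 and 3687 (-1.88 ± 0.12, n = 2) and ninaD -1.71 and -1.79 (-1.75 ± 0.11). lky had -1.39 and -1.50 (-1.44 ± 0.10), and mey -1.24 and -1.40 (-1.32 ± 0.11). The arrays of exchanged dyes lay close together at each gene. In the order of all 7090 units from the most negative change, PH4alphaPV came 27th, ninaD 43rd, lky 123rd and mey 179th. The rule has no numeric limit. In the same order CG12446 (-1.89) came just before PH4alphaPV, Cdlc2, a dynein light chain gene (-1.76), just before ninaD, dpy (-1.44) just after lky, and CG7140 (-1.32) just after mey. At CG7140 the protein without the CaaX signal stood at 0.00, while at dpy it changed by -1.26. In all, 2380 units, 33.6%, were called lower with Dam-Lam under TSA and 31.9% higher.

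Dam-Lam delta CaaX with over without TSA moved less, in a comparison with 29.2% of units called lower and 27.8% higher. The values on arrays 3692 and 3693 were -0.02 and -0.24 at lky and 0.00 and -0.17 at mey. They were -0.33 and -0.28 at PH4alphaPV, and -0.59 and -0.42 at ninaD, the largest of the 4. Of the 494 units whose Dam-Lam change was -1 or lower, the median change of Dam-Lam delta CaaX was -0.60, and 161 changed by less than 0.3 in either direction. mey and lky are among these 161, PH4alphaPV (-0.31) was just outside and ninaD (-0.51) further out. Dam-Lam minus Dam-Lam delta CaaX changes were -1.57 at PH4alphaPV, -1.31 at lky, -1.25 at ninaD and -1.24 at mey.

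The arrays of Dam alone did not choose the genes, but over 7090 units its change with TSA correlated with that of Dam-Lam (r = 0.72), so the test is not independent of the choice. Dam was called lower at PH4alphaPV. The Dam values of that gene with over without TSA were -0.13 and -0.68 on arrays 3690 and 3691 (-0.40 ± 0.12, limma adjusted p = 0.0208). 16.0% of 7090 units were called lower in this comparison. ninaD had 0.00 and -0.44 (-0.22 ± 0.11, adjusted p = 0.137), lky 0.10 and -0.25 (-0.07 ± 0.10, adjusted p = 0.574), and mey 0.45 and -0.28 (0.08 ± 0.11, adjusted p = 0.583). At each gene array 3691 was the lower one, and at mey and lky the arrays lay on opposite sides of 0. Without array 3691 PH4alphaPV stood at -0.10 (adjusted p = 0.562) and no member was called, and without array 3690 ninaD was called too (-0.45, adjusted p = 0.0427). With the change of Dam taken off, the change of Dam-Lam was -1.47 at PH4alphaPV, -1.53 at ninaD, -1.41 at mey and -1.37 at lky, closer together than before.

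With TSA, the mean ratio over Dam was lower than in the untreated experiment at each gene and still above 0, and at lky alone the ranges overlapped (lowest untreated value 0.49). Dam-Lam over Dam was then 0.91 and 0.94 at PH4alphaPV on arrays 3688 and 3689, 1.08 and 0.63 at mey, 0.53 and 0.42 at lky, and 0.34 and 0.40 at ninaD. All 8 values lay above 0. PH4alphaPV and mey stood above 99.6% and 99.3% of units, against 99.9% and 99.8% in the untreated experiment. Counted from the lowest, PH4alphaPV ranked 7064 of 7090 with TSA and 7798 of 7801 untreated. The ranks of mey were 7042 and 7786. Both genes were further from the top with TSA but still near it. ninaD stood above 84.6%, against 96.6% in the untreated experiment, and lky above 90.3%, against 96.1%. These shares are of 7090 units with TSA and of 7801 units in the untreated experiment. The ratio was thus lower and still above 0, which is the median of the array. Whether lamin contact was lost in full or kept in part cannot be read from that, since 0 does not mark its absence. These arrays share the Dam-Lam DNA with TSA with the arrays that chose the genes, and were not tested. The 5 pairs of the TSA experiment also give the ratio without TSA, as the ratio with TSA minus the change of Dam-Lam plus the change of Dam. This derived ratio contains the change that chose the genes, so at them it is no independent check of the untreated ratio. It came to 2.40 ± 0.20 at PH4alphaPV and 2.27 ± 0.19 at mey, within 0.18 of the untreated experiment. At ninaD it was 1.90 ± 0.19 and at lky 1.84 ± 0.16, which is 0.64 and 0.63 above the untreated experiment. Over 6857 units the derived and the untreated ratios correlated with r = 0.84.

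Dam-Lam delta CaaX over Dam with TSA lay around 0. It was 0.00 and 0.10 at PH4alphaPV, 0.07 and 0.02 at lky, 0.15 and -0.20 at mey, and -0.17 and -0.23 at ninaD. Derived without TSA, the same ratio lay between -0.05 and 0.15 at the 4 genes. Only ninaD was below 0 on both arrays with TSA.

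**Figure D2:**
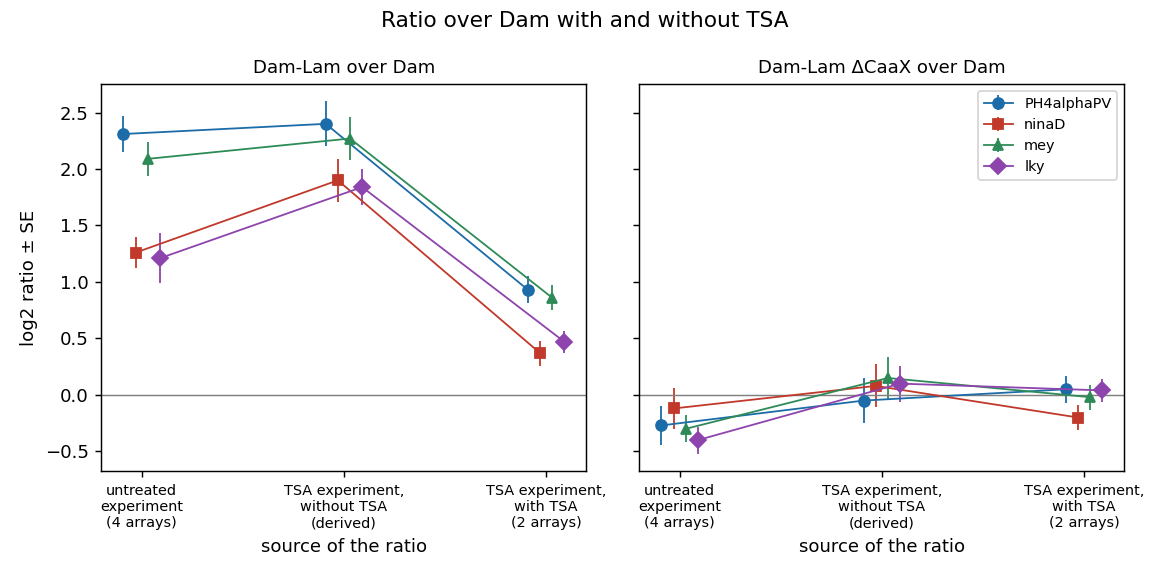
Log2 ratio over Dam (vertical axis, ± SE of the fit) of the 4 genes for Dam-Lam and for Dam-Lam delta CaaX in the untreated experiment, in the TSA experiment without TSA (derived from 3 pairs of arrays) and with TSA (horizontal axis). Dam-Lam falls from 1.84 to 2.40 without TSA to 0.37 to 0.93 with it, partly through the arrays that chose the genes, and Dam-Lam delta CaaX lies between -0.40 and 0.15.

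A fall of Dam-Lam with TSA was common among genes with a high untreated ratio. Across 6857 units the untreated Dam-Lam over Dam ratio and the change of Dam-Lam with TSA correlated with Pearson r = -0.62 and Spearman rho = -0.62, over genes, which are not independent replicates, and with the same kind of Dam-Lam DNA on both axes. The median change was 0.46 at the 1035 units with an untreated ratio under -0.5 and -0.92 at the 409 units with a ratio from 1 to 2. At the 21 units with a ratio of 2 or more it was -1.39. In that last class, PH4alphaPV (-1.88) stood at the 10th percentile and mey (-1.32) slightly above the median. Among units with a ratio from 1 to 2, ninaD (-1.75) and lky (-1.44) lay below the 10th percentile of -1.41. The changes of Dam-Lam and of Dam-Lam delta CaaX also went together over units (r = 0.67).

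**Figure D3:**
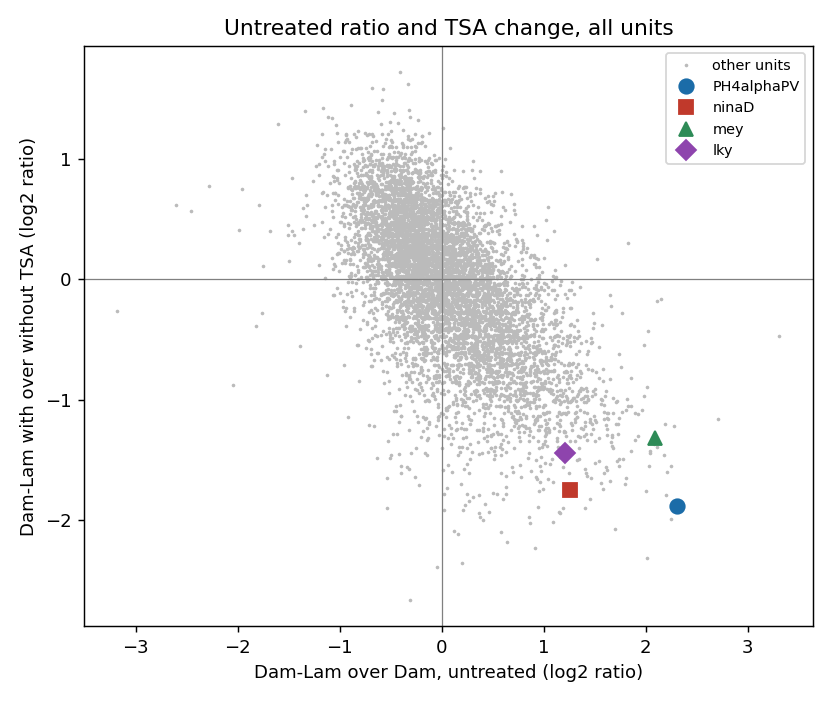
Change of Dam-Lam with over without TSA (vertical axis, log2 ratio) against untreated Dam-Lam over Dam (horizontal axis, log2 ratio), 1 point per unit, with the 4 genes marked. The cloud slopes downwards (r = -0.62 over 6857 units), and the 4 genes, chosen for their low vertical values, lie at its lower right.

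The surroundings differed between the genes, and were read from the 5 nearest measured genes on each side along the chromosome arm, 40 in all. The choice of members did not use them, but genes that touch lamin are often clustered. Their counts are therefore not independent of the choice. In untreated Dam-Lam over Dam, 16 of the 40 were called higher by limma, against 20.3% of all units. In the change of Dam-Lam with TSA, 18 of 33 tested were called lower, against 33.6%. The neighbours of PH4alphaPV made up 8 of the 16 and 8 of the 18. Without array 2921, 0 of the 38 then tested were called higher in the untreated ratio, and without array 2907, 5 were. The count of falls with TSA lay between 14 and 18 with each array of that experiment left out.

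PH4alphaPV sat in a stretch of high ratios. Of its 10 neighbours, 8 were called higher in untreated Dam-Lam over Dam, and 8 of 9 tested fell with TSA. PH4alphaNE3, a related prolyl hydroxylase gene on its left, had an untreated ratio of 1.58 ± 0.14 and a change of -0.84 ± 0.10. The serpin gene Spn100A on its right had 1.98 ± 0.30 and -0.97 ± 0.16. CG31010 had 1.65 and -1.67, and eIF4H2, related to a translation initiation factor, 1.50 and -1.34. The ratio fell off towards zfh1, a zinc finger homeodomain gene at the right end (0.35 ± 0.15 and 0.21 ± 0.16, neither called). None of the 9 tested had a larger fall than PH4alphaPV. Dam fell at PH4alphaNE3 (-0.44) and CG31010 (-0.57) too, and the changes of Dam-Lam delta CaaX in the stretch ran from -0.34 to 0.30.

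ninaD lay at the side of such a stretch. On its left, rdo (1.06 ± 0.15), elfless (1.04 ± 0.13), CG31740 (2.04 ± 0.18) and CG5674 (0.83 ± 0.14) were called higher in the untreated ratio. With TSA 4 of 6 tested neighbours fell, among them elfless (-1.66 ± 0.18), CG31740 (-1.42 ± 0.14) and, on the right, Slc25A46b (-0.80 ± 0.15). On its right, Slc25A46b (0.46), CG5758 (0.32), kel, the ring canal gene kelch (0.29), and JMJD4 (0.11) were not called, and Ptp36E, a tyrosine phosphatase gene, was (0.45, limma adjusted p = 0.0488). kel and JMJD4 changed by 0.06 and 0.22 with TSA and did not pass the test. CadN, the N-cadherin gene at the left end, was the fourth that fell (-0.91 ± 0.13), with an untreated ratio of 0.42 that was not called. Dam itself fell at CG31740 (-0.98, limma adjusted p = 0.000645).

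mey had no neighbour with a like ratio. Its untreated Dam-Lam ratio of 2.09 was flanked by -0.10 at CG11333 and -0.37 at gammaCOP, a coatomer subunit gene. Of its 10 neighbours CG11334 alone was called higher (0.54 ± 0.16) and none lower. None of the 9 neighbours tested fell with TSA. PNPase, a polynucleotide phosphorylase gene (0.50), CG1774 (0.43) and CG1792 (0.62) rose. The others changed by -0.20 to 0.11, among them Gprk2, a G protein-coupled receptor kinase gene, and Med, a Smad gene of the BMP pathway. Between mey and the measured genes next to it lie 3 annotated genes on the left and 4 on the right without a measurement. The neighbours of mey were also the most transcribed of the 4 sets, with a median mRNA over genomic DNA of 0.70 and a highest value of 5.78 at Loxl1, a lysyl oxidase-like gene.

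The neighbours of lky were mixed. Of its 10 neighbours 2 were called higher in untreated Dam-Lam over Dam and 4 lower, against 20.3% and 14.9% of all units. To its left, beyond 26 annotated genes without a measurement, Hers (-0.59 ± 0.14), THADA (-0.67 ± 0.15) and the nucleoporin gene Nup205 (-0.73 ± 0.18) were called lower, while pico (-0.42) and SkpD (0.67) were not called. To its right CG9570 (1.41 ± 0.14) and CG34331 (1.09 ± 0.13) were called higher and CG9577 lower (-0.96 ± 0.15), and the dopamine receptor gene Dop2R next to lky (0.30) and the small GTPase gene Rab35 (0.31) were not called. With TSA 6 of 9 tested neighbours fell and 2 rose, and the falls were on both sides. On the left SkpD (-0.66 ± 0.10), pico (-1.45 ± 0.13) and THADA (-0.28 ± 0.10) fell, and Hers (0.50) and Nup205 (0.26) rose. On the right Dop2R (-0.56 ± 0.09), CG9570 (-1.61 ± 0.12) and CG34331 (-2.01 ± 0.09) fell, and Rab35 (-0.13) did not pass the test. At CG34331 and pico all 3 constructs fell. The changes of Dam-Lam, Dam-Lam delta CaaX and Dam were -2.01, -1.42 and -1.01 at CG34331 and -1.45, -1.89 and -1.01 at pico, against -1.44, -0.13 and -0.07 at lky itself.

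**Figure D4:**
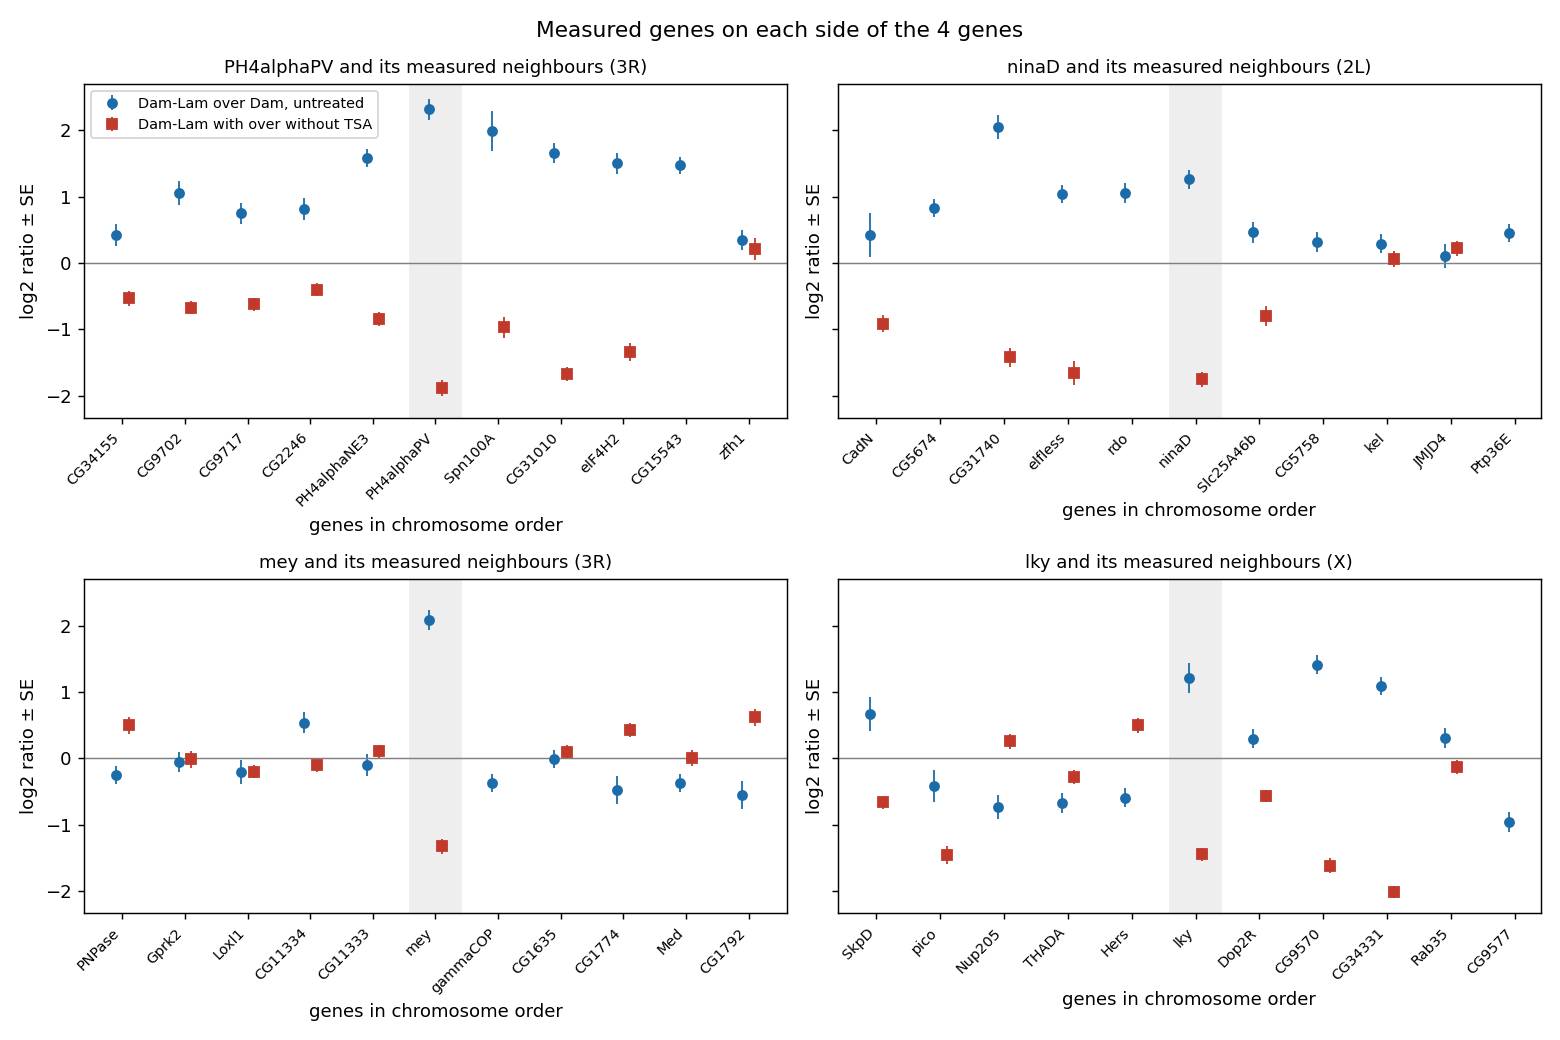
Untreated Dam-Lam over Dam (circles) and Dam-Lam with over without TSA (squares), as log2 ratios ± SE of the fit (vertical axis), at the 4 genes (grey band) and up to 5 measured genes on each side in chromosome order (horizontal axis). PH4alphaPV and ninaD have neighbours with the same signs, none of those of mey was called lower with TSA, and on both sides of lky 3 neighbours were called lower with TSA.

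Genes related by function were followed too. Among prolyl hydroxylase and collagen genes other than PH4alphaPV, 5 of 9 were called higher in untreated Dam-Lam over Dam and 0 lower, against 20.3% and 14.9% of all units, with a median of 0.53 against -0.02. With TSA 6 of 7 tested were called lower, against 33.6% of all units, with a median of -0.71 against 0.01. PH4alphaNE2 (2.04), PH4alphaNE3 (1.58) and PH4alphaSG2 (1.16) had the highest untreated ratios. Mp, a collagen XV and XVIII gene (0.77), and PH4alphaEFB (0.53) were called as well. With TSA, Mp changed by -1.34, PH4alphaEFB by -1.05, PH4alphaNE3 by -0.84, the lysyl hydroxylase gene Plod by -0.71, PH4alphaNE1 by -0.56 and the collagen IV gene Col4a1 by -0.45. Dam-Lam delta CaaX fell too at PH4alphaEFB (-0.80) and Plod (-1.21), 2 of 7 tested, and rose at 1, against 29.2% and 27.8% of all units. Dam alone was called lower at 3 of 7, against 16.0% of all units, and higher at 0. These were PH4alphaEFB (-0.60), Mp (-0.51) and PH4alphaNE3 (-0.44). Dam-Lam delta CaaX changed by -0.16 at Mp and 0.24 at PH4alphaNE3, neither called. Whether the falls of Dam and of Dam-Lam at these genes have a common source was not tested. vkg, the other collagen IV gene, was at -0.01 untreated and 0.11 with TSA. PH4alphaNE3 is the nearest measured gene to the left of PH4alphaPV on arm 3R in Release 6, so these genes are not independent of each other. The other PH4alpha genes named here are not among the 5 nearest measured genes on either side of PH4alphaPV. Whether they are independent of it was not tested.

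Relatives of ninaD and mey did not follow them as a group. Of 6 measured scavenger receptor and visual pigment genes, crq, a phagocytic receptor gene, was called higher in untreated Dam-Lam over Dam (0.42), ninaG lower (-0.45) and the other 4 neither, against 20.3% of all units called higher and 14.9% lower. With TSA 4 of the 6 rose, against 31.9% of all units, among them ninaG (1.02), ninaB, the carotenoid-cleaving enzyme gene (0.61), and santa-maria, a scavenger receptor of the same pathway (0.56), and pes fell (-0.45), as did 33.6% of all units. At these genes Dam-Lam delta CaaX moved the same way (1.01, 1.02, 0.55 and -0.74). Of 6 measured zona pellucida domain genes 1, tyn, was called higher untreated (0.84), against 20.3% of all units. With TSA 5 of them were tested, tyn not among them. neo (-0.54) and dyl (-0.31) fell and pio rose (0.73), against 33.6% of all units called lower and 31.9% higher. Of the deacetylase and lamin genes HDAC1, HDAC4 and Sirt1 were measured. At these, Dam-Lam changed by -0.43, -0.48 and 0.15 with TSA, the first 2 called, and Dam-Lam delta CaaX fell at all 3 (-0.63, -0.80 and -0.29). Of all units 33.6% and 29.2% were called lower in these comparisons. The untreated Dam-Lam ratios of HDAC1, HDAC4 and Sirt1, 0.40, 0.19 and -0.19, were not called.

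The genes whose values were most like those of each member were sought over the 22 DamID arrays other than the 6 of Dam-Lam over Dam in the ecdysone experiment, among 5699 genes with a value on every array. For PH4alphaPV they were LS2, a splicing factor gene (Pearson r = 0.980), Ca-alpha1D, a calcium channel gene (0.972), and CG11227 (0.969). For ninaD they were CG7329 (0.967), CG16898 (0.961) and CG11426 (0.957). For mey they were Ppn, the matrix protein papilin (0.976), CG7140 (0.976) and CG17191 (0.974). For lky they were Rh50, an ammonium transporter gene (0.955), sm (0.953) and CG17191 (0.945). All of these had untreated Dam-Lam over Dam ratios of 0.99 to 2.25 and TSA changes of -1.99 to -0.85. The search used the arrays that give these values, so the likeness in them follows largely from the search. The arrays of one experiment share DNA samples, and 4 of the 22 chose the members. The members correlated with each other at 0.89 to 0.96 over the 22 arrays and at 0.82 to 0.95 over the 18 that did not choose them. An r over 0.9 was reached with PH4alphaPV by 2.79% of genes over 22 arrays and 1.84% over 18, and with mey by 3.07% and 2.44%. With ninaD it was 0.965% and 0.351%, and with lky 1.25% and 0.562%. Without the 4 arrays, LS2 stayed with PH4alphaPV, all 3 genes with ninaD and with mey, and CG17191 with lky.

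With ecdysone, Dam-Lam methylation at the 4 genes stayed within 0.20 of no change on every array. The Dam-Lam values with over without the hormone on arrays 3463 and 3464 were 0.10 and -0.20 at PH4alphaPV, -0.15 and 0.06 at ninaD, 0.14 and 0.10 at mey, and 0.05 and -0.05 at lky. Only mey had both values on the same side of 0. Dam with over without the hormone lay between -0.44 and 0.03 at the 4 genes on arrays 3465 and 3637. limma called 0 of the 4 members and 0 of 7090 units (0.0%) for Dam-Lam, with 211 units and no member at an unadjusted p under 0.05. For Dam 1 unit (0.0141%) and no member was called, and for the difference of the changes 0 units (0.0%), with 217 units at an unadjusted p under 0.05. Over all rows the dye-swapped arrays correlated at 0.02 for Dam-Lam and 0.06 for Dam, and the standard error at the members was 0.19 to 0.20, so that small changes were not detectable with these arrays.

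The 6 arrays of Dam-Lam over Dam in that experiment have no settled direction. Arrays 3428 and 3436, both with ecdysone and with the same dyes, correlated at -0.64, and 3434 and 3441, both without it and with the same dyes, at -0.56. As deposited, PH4alphaPV had -1.75, 2.65 and 1.73 with ecdysone (arrays 3428, 3436 and 3442) and 1.63, -2.27 and -1.90 without (3434, 3441 and 3443). The signs were the same at ninaD (-0.92, 1.31, 1.07, 1.33, -1.18 and -1.56), mey (-1.27, 1.59, 1.35, 1.02, -2.49 and -2.26) and lky (-0.80, 1.43, 0.98, 0.63, -1.67 and -2.33). Arrays 3428, 3441 and 3443 correlated below 0 with the untreated Dam-Lam mean. With the sign of these 3 turned, as decided once the values were known, all 6 values are positive at each gene. The 4 genes stand high in the untreated mean that set the turning. Their positive values therefore follow largely from the turning and are no separate evidence of lamin contact. The means ± SD (n = 3) with and without ecdysone were then 2.04 ± 0.53 and 1.93 ± 0.32 at PH4alphaPV, 1.10 ± 0.20 and 1.36 ± 0.19 at ninaD, 1.40 ± 0.17 and 1.92 ± 0.79 at mey, and 1.07 ± 0.33 and 1.54 ± 0.86 at lky. The ranges with and without the hormone overlap at each of the 4 genes.

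Transcripts of all 4 genes were at the low end in untreated cells. mRNA over genomic DNA on arrays 3458 and 3459 was -1.45 and -2.25 at PH4alphaPV, -1.54 and -3.43 at ninaD, -1.31 and -2.73 at mey, and -1.64 and -2.14 at lky. The means lay above 11.3%, 1.83%, 7.62% and 10.2% of 8076 units. Array 3459 gave the lower value at each gene, and the 4 genes overlapped in range, so their order is not resolved. With 2 arrays no test was made. Over 8064 units the untreated Dam-Lam over Dam ratio and the mRNA ratio correlated with r = -0.37 (rho = -0.41), given as a description across genes. At the 430 units with an untreated ratio of 1 or more the median mRNA ratio was -1.51. Among the genes most like the members, Ppn was an exception, with an mRNA ratio of 1.98.

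**Figure D5:**
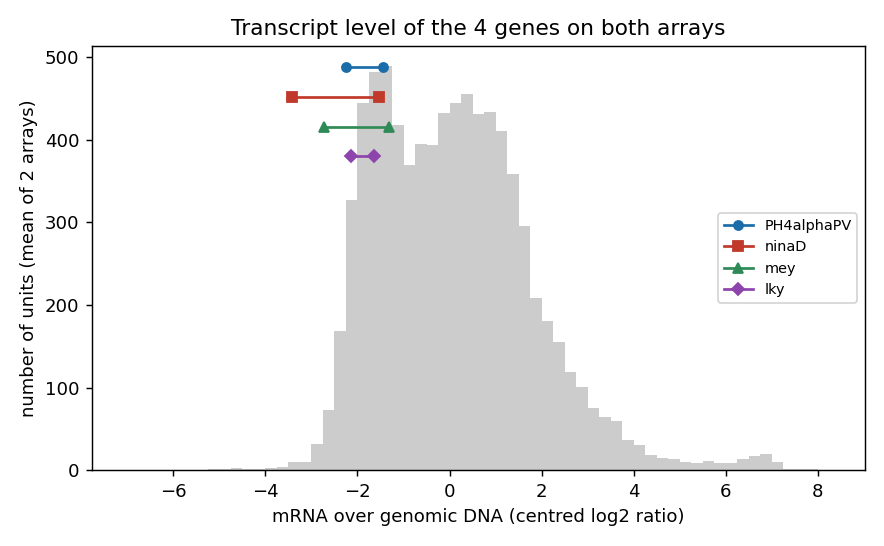
Number of units (vertical axis) by their mRNA over genomic DNA ratio in untreated cells (horizontal axis, centred log2 ratio, mean of 2 arrays), with the values of the 4 genes on both arrays joined by a line, placed at arbitrary heights. The 8 values lie between -3.43 and -1.31, in the lower part of the distribution.

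Ecdysone did not bring a called change of these transcripts. ninaD had mRNA ratios with over without the hormone of 0.11, 0.64, 0.29, 0.68 and 0.04 on arrays 3426, 3427, 3450, 3451 and 3452 (fitted 0.30 ± 0.13, limma adjusted p = 0.320). mey had 0.45, 0.24, 0.10, 0.65 and 0.08 (0.30 ± 0.14, adjusted p = 0.378). Both were above 0 on 5 of 5 arrays. lky had 0.22, 0.27, 0.56, 0.74 and -0.27 (0.25 ± 0.14, adjusted p = 0.470), and PH4alphaPV -0.22, 0.26, -0.32, -0.57 and 0.12 (-0.13 ± 0.16, adjusted p = 0.762). limma called 0 of the 4 against 3.78% of 7090 units, and only ninaD had an unadjusted p under 0.05 (0.0448). The 5 arrays correlated with each other at -0.14 to 0.75 over all rows.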

How the data were processed

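Log ratios of the channels of 35 arrays were used as deposited. The authors used limma, per the submitters' processing notes, while its version, the background correction, the normalization, the spot filter, the log base and the direction of the ratio are not stated in the sources at hand. The deposited ratios were taken as log2. Their maximum of 11.6, on array 2945, exceeds 11.1, the natural logarithm of the scanner ceiling. As the background correction and normalization behind that value are not known, the base remains an assumption, and the fold values rest on it. Deposited array medians lay between -0.22 and 0.14. Each array was centred on its median, and probe rows of a gene were averaged, which made 8423 units from 9006 rows (7843 name 1 gene, 246 name several and 917 have no entry in the probe table). Current symbols and gene order came from Release 6, which held 7135 of the genes.

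limma (3.58.1, R 4.3.3) was fitted with lmFit and eBayes and a gene-wise dye term to every unit valued on 75% or more of the arrays of a fit. Tests are two-sided, and a call is a Benjamini-Hochberg adjusted p under 0.05. Scripts were tested on simulated data. The 10 TSA arrays form 1 fit with a coefficient for each pair, so each change rests on its own pair while all share a spread. The ecdysone fit used the 4 DamID arrays of with over without hormone, and the mRNA fit its 5 arrays. A ± is the SE of the fit unless SD is written. The genes named are the members, the 5 nearest measured genes on each side, listed relatives and markers, and the 3 genes of highest Pearson r for each member, besides genes next to the members in the order of change. Members and lists were chosen with earlier results of these data known. Alternatives were no centring, no dye term, complete units, single probe rows, arrays scaled to 1 spread, each array left out, an adjusted p under 0.01, other sets of arrays, and arrays turned in sign.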

Additional observations from a re-analysis of the deposited data

How the results depend on the processing

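The 4 calls of Dam-Lam minus Dam-Lam delta CaaX and the 0 calls of mRNA with ecdysone held in every alternative run. In untreated Dam-Lam over Dam, 1 to 4 members and 0 to 20 neighbours were called with an array left out. Both counts were 0 with the 3 arrays without ecdysone of the ecdysone experiment added as deposited, of which 2 correlate below 0 with the untreated mean. At an adjusted p under 0.01 the members called fell to 0 for untreated Dam-Lam delta CaaX and for Dam with TSA. With an array left out, these counts ran from 0 to 2. Untreated Dam-Lam delta CaaX at ninaD then ran from -0.41 to 0.16. Dam with TSA ran from -0.45 to 0.01 at ninaD, from -0.14 to 0.31 at mey and from -0.19 to 0.04 at lky. The change of Dam-Lam with ecdysone, near 0 throughout and not called, turned sign at lky without centring (0.03), at PH4alphaPV, ninaD and lky in a model of all 10 arrays as deposited (0.46, 0.21 and 0.44) or with the Cy3 arrays turned (0.15, 0.16 and 0.10), and at mey with arrays turned by correlation (-0.10). With the last setting the change of Dam turned at mey (0.14), and the difference of the changes at ninaD, mey and lky (-0.11, -0.23 and -0.20). That difference also turned at PH4alphaPV without centring (-0.02) and with arrays scaled (-0.04). The turned settings by correlation were chosen after the data were seen, and the cause of these shifts was not tested. Arrays scaled to 1 spread brought the change of Dam-Lam with TSA to -1.28 at PH4alphaPV, -1.19 at ninaD, -0.90 at mey and -0.98 at lky. Over all units, an adjusted p under 0.01 left 937 calls of 2844 for untreated Dam-Lam, 1004 of 2619 for untreated Dam-Lam delta CaaX, 1383 of 2719 for their difference, 1068 of 2241 for Dam with TSA and 113 of 268 for mRNA with ecdysone. With an array left out these ran from 11 to 4237, 1024 to 3374, 1928 to 2892, 902 to 2365 and 84 to 809. No paired analysis was possible because array numbers are unique and pair no samples across groups. Leaving an array out of the 4-array ecdysone fit was not run, since no residual degree of freedom is left.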
